A study of Mus musculus with 11 samples.

Results

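Heat shock proteins and J-domain chaperones were followed through 11 bulk RNA-seq libraries of mouse muscle stem cells. The genes were taken by symbol: the Hspa series without Hspa5, the Hspb series, Hspd1, Hspe1, Hsph1, the Hsp90a genes, the Dnaja, Dnajb and Dnajc series, and in addition Bag3 and Hsf1. This gave 72 of the 20640 genes in the table. Of these, 62 reached the 1 RPKM in at least 2 libraries that was asked for a test, as did 11568 genes in all. Every level given here is in RPKM, reads scaled to the length of the gene and the size of the library, so genes of different length can be set side by side.

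Chaperones of the Hsp70 family bind unfolded stretches of protein and release them in a cycle driven by ATP. J-domain proteins (the Dnaj genes) deliver clients to Hsp70 and start the ATP hydrolysis, while exchange factors such as Hsph1 and Bag3 reset the cycle. Hsp90 takes over clients that are nearly folded, Hspd1 and Hspe1 form the folding chamber of mitochondria, and small heat shock proteins (Hspb genes) hold unfolding proteins without ATP. Heat and other protein damage activate Hsf1, a transcription factor that binds inverted repeats of the letters GAA near the start of its target genes. In skeletal muscle, several small heat shock proteins are made by the contractile fibres and sit at the sarcomere.

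All mice carried Pax7-CreERT2;Rosa-YFP, in which Cre made in Pax7-expressing cells switches on YFP, and all, controls included, had received tamoxifen at 240 mg/kg for 5 days when 12 to 14 weeks old. YFP+ cells of limb muscle were sorted free of cells stained for Sca-1, CD31 and CD45. The middle-aged group of 3 libraries is 10 to 14 months old by its labels, or 12 to 14 months where the extraction is described, and its titles name no VCAM1 gate. Geriatric cells (over 28 months) were gated on surface VCAM1, with 3 libraries named VCAM1-high, 2 named VCAM1-low and 3 named VCAM1-negative in the titles. For the lower gates the series' design has the names Mid and Low/-. Comparisons with the middle-aged group change age, gating and time since labelling together. Whether the replicates come from separate animals is not in the labels, and the p-values stand for the spread between these samples, which may be technical.

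The estimated depth of the libraries was 20.1 to 29.8 Mreads (M for mega), and 10395 to 11171 genes reached 1 RPKM. All 10 muscle stem cell markers checked (Pax7, Vcam1, Myf5 and others) were at 1 RPKM or more in every library, with a summed level between 1414 and 3810 RPKM. Some libraries stood apart. The geriatric libraries numbered 1 carried the highest heat shock levels in their gates. Transcripts of myofibres, the contractile cells of muscle, were high in the VCAM1-negative libraries (764, 7794 and 6159 RPKM summed over the 15 of 16 markers in the table, against 67.8 to 370 elsewhere). Macrophage markers were highest in VCAM1-high replicate 3 (872 RPKM summed over 11 markers) and endothelial markers in middle-aged replicate 3 (434 RPKM summed over 12). In bulk RNA, a change in the share of cells of a type and a change in RNA per cell cannot be told apart.

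Together the 72 genes held between 1.52% and 5.18% of the summed RPKM of a library. The share was 5.18% in VCAM1-negative replicate 1, 4.58% in VCAM1-low replicate 1 and 2.84% in VCAM1-high replicate 1. In the other 5 geriatric libraries it was 1.61% to 1.91%, and in the middle-aged libraries 1.52%, 2.03% and 1.90%. Thus the share was highest in the 3 geriatric libraries numbered 1, and the groups overlapped (middle-aged 1.81% ± 0.26, VCAM1-high 2.08% ± 0.67, VCAM1-negative 2.93% ± 1.95; SD, n = 3 each).

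The most abundant member was Hspa8, the constitutive cytosolic Hsp70, at a mean of 2769 RPKM over the 11 libraries. It was followed by the heat-inducible Hsp70 genes Hspa1a (1831) and Hspa1b (1063), the cytosolic Hsp90 gene Hsp90ab1 (842) and the small heat shock protein gene Hspb1 (782). The highest J-domain gene was Dnaja1 (275), close to Dnajb1 (255), both partners of cytosolic Hsp70. The Hsp70 group including Hsph1 had all 13 members tested. Of the J-domain genes, 4 of 4 Dnaja, 10 of 13 Dnajb and 23 of 28 Dnajc members were tested, with median levels per family of 64.0, 20.0 and 13.7 RPKM over all members. Of the small heat shock genes 6 of 8 were tested.

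The 10 untested genes were Hspb3, Hspb9, Dnajb7, Dnajb8, Dnajb13, Dnajc5b, Dnajc5g, Dnajc6, Dnajc22 and Dnajc28. No member was at 0 in every library. Hspb3, a muscle small heat shock protein, was highest in the VCAM1-negative libraries (0.41, 1.71 and 0.61 RPKM) and was between 0 and 0.30 RPKM in the other 8. Dnajc28 lay between 0.29 and 1.18 RPKM. The remaining 8 stayed at or under 0.43 RPKM in every library.

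**Figure D1:**
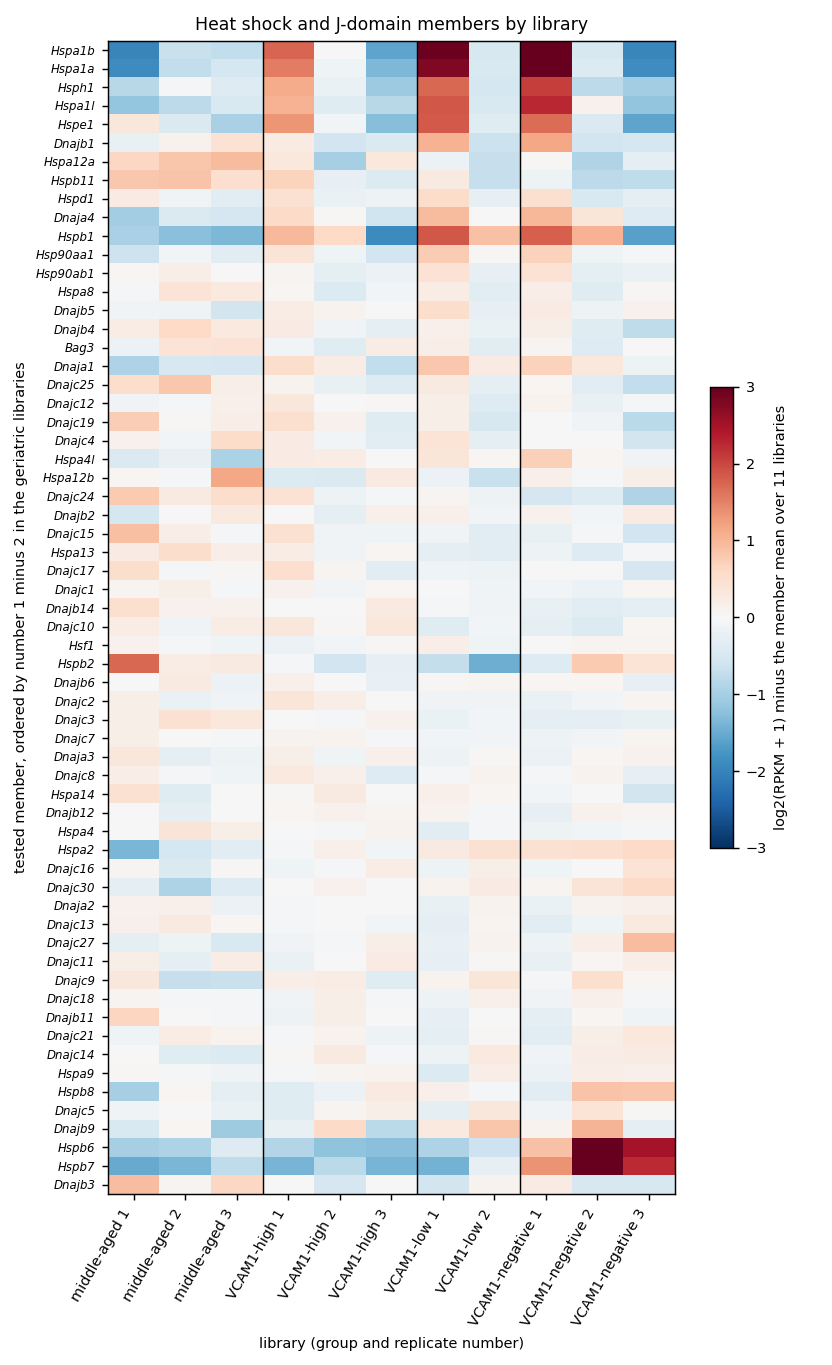
Heat map of the 62 tested members (rows) in the 11 libraries (columns, grouped by black lines); colour is log2(RPKM + 1) minus the gene's mean over all libraries, with red above the mean and blue below, and rows are ordered by the difference between replicates 1 and 2 in the geriatric libraries. The top rows (Hspa1b, Hspa1a, Hsph1, Hspa1l, Hspe1) are red in the 3 geriatric libraries numbered 1, and Hspb6 and Hspb7 near the bottom are red in the VCAM1-negative libraries.

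Hspa1a and Hspa1b, the heat-inducible Hsp70 pair, differed more between libraries of a gate than between gates. Hspa1a was at 2579.9, 807 and 349 RPKM in VCAM1-high replicates 1, 2 and 3, at 6135 and 649 for VCAM1-low replicates 1 and 2, and at 7325, 665 and 244 for VCAM1-negative replicates 1, 2 and 3. The middle-aged libraries had 239, 535 and 617 RPKM. Replicate 1 was therefore the highest library in each geriatric gate and the lowest among the middle-aged.

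Hspa1b followed with 1577, 465 and 157 RPKM in VCAM1-high, 3619.6 and 336 for VCAM1-low, 4394, 335 and 121 for VCAM1-negative, and 117, 294 and 279 in the middle-aged libraries. The ratio of Hspa1a to Hspa1b stayed between 1.64 and 2.22. These genes are near-identical copies: 48.6% of the 100-base windows of the longest Hspa1a transcript and 49.9% of those of Hspa1b also occur in other genes, mostly in each other. The sources used here do not say how reads were divided between them, so their separate levels are uncertain.

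The start regions shown here hold the letters that Hsf1 is known to bind. All are of members for which replicate 1 was the highest library in each geriatric gate. Because they were picked by level, they cannot show how motif and level relate. RefSeq promoter windows on GRCm38.p6 (250 bases before to 50 after the start) were matched by symbol and found for 57 of the 72 genes. Each was searched on both strands for a short motif, GAANNTTC (N is any base), and for a long heat shock element, in which GAA and TTC alternate over 3 units with 2 bases between them. Every long match contains a short one. The matches are in capitals, each line reads 5′ to 3′ on the gene's own strand, and the Hspa1a and Hspa1b excerpts are the same letters.
Hspa1a (chr17:34972223-34972290, minus strand) and Hspa1b (chr17:34959305-34959372, minus strand): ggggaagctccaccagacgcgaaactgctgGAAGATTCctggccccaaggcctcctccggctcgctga
Hspd1 (chr1:55088029-55088106, minus strand): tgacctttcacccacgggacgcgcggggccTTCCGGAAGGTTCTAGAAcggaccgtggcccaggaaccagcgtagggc
Hspe1 (the same bases, plus strand): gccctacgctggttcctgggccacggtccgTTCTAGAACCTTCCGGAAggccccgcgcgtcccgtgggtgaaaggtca
Hspb1 (chr5:135887772-135887859, plus strand): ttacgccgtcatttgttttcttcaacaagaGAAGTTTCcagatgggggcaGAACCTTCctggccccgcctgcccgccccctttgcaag
Dnaja1 (chr4:40722314-40722381, plus strand): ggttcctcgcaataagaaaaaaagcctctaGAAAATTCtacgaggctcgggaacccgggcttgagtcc
Dnaja4 (chr9:54699439-54699544, plus strand): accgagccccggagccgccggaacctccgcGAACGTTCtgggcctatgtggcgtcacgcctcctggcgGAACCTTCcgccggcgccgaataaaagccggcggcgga
Hsph1 (chr5:149636280-149636308, minus strand): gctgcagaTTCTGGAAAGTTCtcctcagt

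The Hspa1a and Hspa1b match begins 104 bases before the annotated start, the first Hspb1 match 117 bases before and the Dnaja1 match 124 bases before. Hspd1 and Hspe1 lie head to head and share one stretch between their starts, in which 2 long motifs overlap. The Hsph1 match lies after the annotated start. The long motif was found in 4 of 57 members (7.02%: Hspd1, Hspe1, Hsph1 and Dnajb6), while 0.662% of the 27025 genes with a window hold it. The short motif was found in 15 members (26.3%), against 9.04% of all genes. The matches of Bag3, Dnajb6, Dnajc27, Dnajc5g, Hspb3 and Hspb8 are not shown. Dnajb1 had no match, which says only that these letters are not in its windows.

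The pattern of the Hspa1 pair was shared by many members, and the number in the library titles was therefore described gene by gene. The labels do not say what the number stands for, and this description was chosen because earlier results had shown it, so the tests on it are not independent evidence. Within the 8 geriatric libraries 61 members and 11325 genes were tested. Replicate 1 was the highest library of its gate in all 3 gates for 21 members (34.4%), against 10.0% of all genes tested. It was the lowest in all 3 gates for 9 members (14.8%), against 17.7% of all genes.

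The 21 members were, among the Hsp70 genes, Hspa8, Hspa1a, Hspa1b, Hspa1l, Hspa4l, Hspa12a and Hsph1. Both Hsp90 genes and both mitochondrial chaperonin genes were among them, as were Hspb1 and Hspb11, Dnaja1 and Dnaja4, Dnajb1, Dnajb4 and Dnajb5, and Dnajc12, Dnajc19 and Dnajc25. The opposite set held Hspa9, the mitochondrial Hsp70, and Dnaja2, Dnajb11, Dnajc5, Dnajc11, Dnajc16, Dnajc18, Dnajc27 and Dnajc30. Dnajc members, 23 of the 61 tested, were 6 of the 9 in the opposite set and 3 of the 21. In 18 members the 3 geriatric libraries numbered 1 were above every other geriatric library, as in 3.81% of all genes.

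In a model of gate and number over the 8 geriatric libraries, 22 of 61 members passed the number term (36.1%), near the 29.6% of all genes that did. Against replicate 2, replicate 1 was higher in 17 members (27.9%; 10.3% of all genes) and lower in 2 (3.28%; 9.46% of all genes), Dnajb9 and Dnajc5. Against replicate 3, it was higher in 17 members (4.03% of all genes) and lower in 0 (6.34% of all genes). Without the geriatric libraries numbered 1, the same term was passed by 5 members (5.27% of all genes). Leaving out single libraries brought 22 down to 8 without VCAM1-low replicate 1 or 2 (4.89% and 5.21% of all genes), to 13 without VCAM1-high replicate 2 (9.17%) and to 14 without VCAM1-negative replicate 1 (22.5%). The count over all genes fell with that over the members in each of these omissions.

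The largest differences were those of the Hsp70 genes. On the log2(RPKM + 1) scale, replicate 1 exceeded replicate 2 by 2.96 ± 0.36 (standard error) for Hspa1b and by 2.79 ± 0.36 for Hspa1a, each with an adjusted p of 0.004 for the number term. In RPKM, Hspa1a was 3.20-fold higher in replicate 1 than in replicate 2 of VCAM1-high, 9.45-fold in VCAM1-low and 11.02-fold in VCAM1-negative. Against replicate 3 it was 7.39-fold higher in VCAM1-high and 30.0-fold in VCAM1-negative. Hspa1l, the third Hsp70 gene of that cluster and known from testis, had 10.2, 3.27 and 2.05 RPKM in VCAM1-high, 18.9 and 2.95 for VCAM1-low and 25.0, 4.96 and 1.40 for VCAM1-negative. Of the exon bases of Hspa1l, 71.9% are also covered by Gm10501 on the other strand, so its reads may be counted for either if strand was not used.

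**Figure D2:**
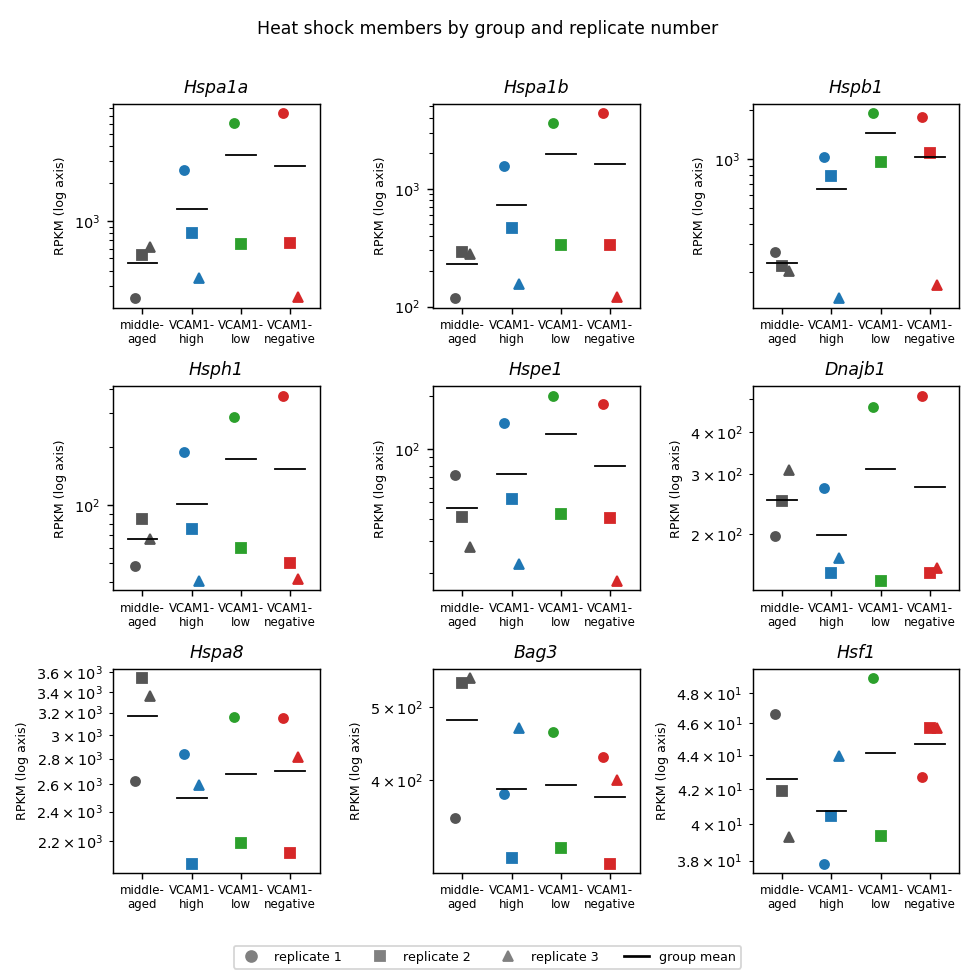
RPKM (log axis, scaled per panel) of 9 members in each library, by group on the horizontal axis; circles, squares and triangles are replicates 1, 2 and 3, and the line is the group mean. For Hspa1a, Hspa1b, Hspb1, Hsph1, Hspe1, Dnajb1 and Hspa8 the circle is on top in each geriatric gate, while Hsf1 lies between 37.8 and 49.0 RPKM in all libraries.

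Hsph1, the large Hsp70 relative that exchanges nucleotide on Hsp70, had 189, 75.5 and 40.4 RPKM in VCAM1-high, 287 and 59.9 for VCAM1-low and 370.2, 49.8 and 41.4 for VCAM1-negative. The middle-aged libraries had 48.5, 85.1 and 66.5 RPKM. Replicate 1 exceeded replicate 2 of the geriatric gates by 2.14 ± 0.25 log2 (adjusted p of the number term 0.004). Hspa8 spanned only 2063 to 3158 RPKM in the geriatric libraries. Its replicate 1 was above replicate 2 by 0.52 ± 0.11 log2 (adjusted p of the number term 0.027). Of its transcript windows, 62.8% also occur in other genes. Hspa4 and Hspa14, other cytosolic relatives, did not pass the number term (adjusted p = 0.49 and 0.16).

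Among the chaperonin genes, Hspe1 had 142, 52.5 and 22.4 RPKM in VCAM1-high, 201 and 42.8 for VCAM1-low and 181, 40.8 and 17.9 for VCAM1-negative. Its partner Hspd1 had 206, 130.3 and 135 RPKM in VCAM1-high, 219.8 and 127 for VCAM1-low and 209, 109.5 and 125 for VCAM1-negative. The differences between replicates 1 and 2 were 1.91 ± 0.17 log2 for Hspe1 and 0.79 ± 0.10 for Hspd1. The adjusted p of the number term was 0.001 for Hspe1 and 0.006 for Hspd1. The pair shares its start region, and the difference was larger in value for Hspe1. Hspa9, which works on proteins imported into mitochondria, was lowest in replicate 1 of each geriatric gate (190.2, 148 and 176 RPKM against 211 to 229 in the other geriatric libraries) and did not pass the number term (adjusted p = 0.074). Dnajc19, a J-domain protein of the mitochondrial import motor, passed with replicate 1 above replicate 3 by 0.90 ± 0.15 log2.

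Hspb1, the widely expressed small heat shock protein, also had replicate 1 highest. In VCAM1-high and VCAM1-negative its replicate 2 lay nearer to replicate 1 than to replicate 3. It was at 1025 and 791 RPKM in VCAM1-high replicates 1 and 2 but 138 in replicate 3, at 1919 and 958 for VCAM1-low, and at 1823, 1086 and 168 for VCAM1-negative. The middle-aged libraries had 267, 218 and 204 RPKM. Replicate 3 of VCAM1-high and VCAM1-negative was thus below every middle-aged library, while the other 6 geriatric libraries were above all of them. Replicate 1 exceeded replicate 2 by 0.71 ± 0.15 log2 and replicate 3 by 3.23 ± 0.18 (adjusted p of the number term 0.0006), and 42.7% of the transcript windows of Hspb1 also occur in a pseudogene.

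Hsp90aa1, the inducible cytosolic Hsp90, had 569, 397 and 289 RPKM in VCAM1-high, 729 and 445 for VCAM1-low and 701, 396 and 421 for VCAM1-negative. The constitutive Hsp90ab1 had 871, 673 and 733 RPKM in VCAM1-high, 1119 and 701 for VCAM1-low and 1119, 687 and 716 for VCAM1-negative. Of the transcript windows of Hsp90aa1 47.5% also occur in other genes. Replicate 1 was highest throughout, by 0.68 ± 0.13 log2 over replicate 2 for Hsp90aa1 and 0.58 ± 0.12 for Hsp90ab1. For the number term the adjusted p was 0.010 for Hsp90aa1 and 0.023 for Hsp90ab1. Of the J-domain partners, Dnajb1 had 274, 154 and 170.2 RPKM in VCAM1-high. It had 475 and 146 for VCAM1-low and 512, 154 and 159 for VCAM1-negative. Its replicate 1 exceeded replicate 2 by 1.42 ± 0.20 log2 (adjusted p of the number term 0.008). Dnaja1 and Dnaja4 passed the number term (adjusted p = 0.008 and 0.004), as did Dnajb4 (adjusted p = 0.017). Reads of Dnaja4 may be shared with Wdr61, which covers 44.1% of its exon bases on the other strand.

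Hsf1 itself lay between 37.8 and 49.0 RPKM in all 11 libraries and did not pass the number term (adjusted p = 0.73) or the test among the 4 groups (adjusted p = 0.94). Bag3, the exchange factor that hands Hsp70 clients to autophagy, had 384, 316 and 469 RPKM in VCAM1-high, 464 and 325 for VCAM1-low and 429, 311 and 400.0 for VCAM1-negative. Its replicate 1 exceeded replicate 2 by 0.42 ± 0.11 log2 but not replicate 3 (-0.07 ± 0.13). Dnajb9, a J-domain protein of the endoplasmic reticulum, had another order. Replicate 2 was highest in each geriatric gate (117, 141 and 161 RPKM), replicate 1 had 67.6, 96.3 and 84.6, and replicate 3 was lowest in the 2 gates that have one (44.9 in VCAM1-high and 64.5 for VCAM1-negative). Dnajc5, the cysteine string protein of secretory vesicles, was lower in replicate 1 than in replicate 2 (-0.53 ± 0.12 log2).

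**Figure D3:**
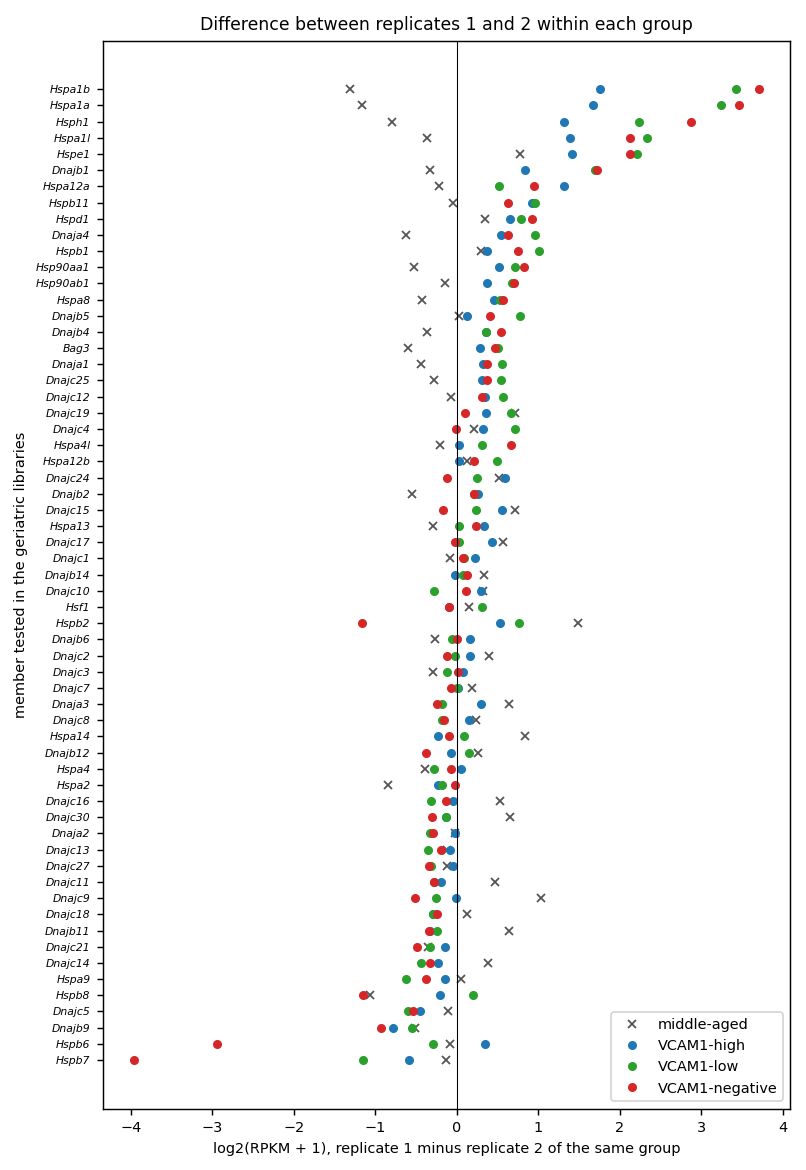
Difference between replicates 1 and 2 on the log2(RPKM + 1) scale for the 61 members tested in the geriatric libraries, ordered by the geriatric mean; filled circles are the 3 VCAM1 gates and crosses the middle-aged group. For Hspa1b, Hspa1a and Hsph1 all 3 geriatric points are above 0 and the middle-aged cross is below 0, whereas for Hspe1, Hspd1 and Hspb1 all 4 points are above 0.

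The middle-aged libraries had the opposite order for several of these genes. Replicate 1 was below replicate 2 there for Hspa1b (-1.32 log2), Hspa1a (-1.16), Hsph1 (-0.80), Hsp90aa1 (-0.53) and Dnajb1 (-0.33), and above it for Hspe1 (0.78), Hspd1 (0.35) and Hspb1 (0.29). Over all 11 libraries, 5 of 62 members passed the number term (8.06%), against 9.27% of all genes: Hspb1, Hspd1, Hspe1, Dnajb9 and Dnajc19. Without middle-aged replicate 1 the count was 17 (19.5% of all genes), and without the geriatric libraries numbered 1 it was 0 (0.201% of all genes). It was 9 without middle-aged replicate 2 (18.5% of all genes). It was 1 without VCAM1-high replicate 1 or 3 or either VCAM1-low replicate (0.329% to 0.65% of all genes), and 2 without VCAM1-high replicate 2 or VCAM1-negative replicate 1 or 2 (0.364% to 3.25%). The difference between age groups in the number pattern was not tested.

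Marker sums of some cell types also moved with the number. The summed level of the 10 muscle stem cell markers was highest in replicate 1 of each geriatric gate, with 3810, 1912 and 2870 RPKM in VCAM1-high, 2323 and 1903 for VCAM1-low and 2149, 1414 and 1944 for VCAM1-negative. In the middle-aged libraries it was 2839, 3722 and 3191, lowest in replicate 1. Chodl and Sdc4 made up most of each sum (1605 and 1249 RPKM in VCAM1-high replicate 1). Pax7, Vcam1, Myf5 and Cxcr4 were highest in replicate 1 of each geriatric gate, while Itga7, Cdh15, Calcr, Sdc4, Chodl and Megf10 were not. The myofibre sum was lowest in replicate 1 of each geriatric gate, with 73.3 RPKM against 132 and 214 in VCAM1-high, 67.8 against 182 for VCAM1-low and 764 against 7794 and 6159 for VCAM1-negative. So was the sum of 11 macrophage and leukocyte markers, with 2.80 RPKM against 17.0 and 872 in VCAM1-high, 38.3 against 54.6 for VCAM1-low and 78.6 against 92.1 and 217 for VCAM1-negative. Of the macrophage and leukocyte markers, 1 reached 1 RPKM and 4 were at 0 in VCAM1-high replicate 1. The part of these 3 cell types in the heat shock pattern was not tested.

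The 18 immediate early genes often raised by tissue dissociation, such as Fos and Jun, summed to 36562 and 39168 RPKM in VCAM1-low and VCAM1-negative replicate 1, to 31952 and 32140 in replicate 2 of those gates and to 24166 for VCAM1-negative replicate 3. In VCAM1-high the sums were 27016, 29270 and 23843, with replicate 2 above replicate 1, and in the middle-aged libraries 22288 to 26879. All 18 were at 1 RPKM or more in every library. Replicate 1 was thus highest in VCAM1-low and VCAM1-negative but not in VCAM1-high, and the part of these genes in the heat shock pattern was not tested either. Of the members in which replicate 1 was highest in every gate, 8 of the 17 with a promoter window held a motif (Dnaja1, Dnaja4, Hspa1a, Hspa1b, Hspb1, Hspd1, Hspe1 and Hsph1), as did 5 of 31 other tested members. Hspa1a and Hspa1b hold the same letters and Hspd1 and Hspe1 the same bases, so these 4 genes stand for only 2 sequences. Among tested genes that are not members the shares were 8.58% and 6.79%. The difference between these shares was not tested. Of 51 tested non-members with the long motif, 7 (13.7%) had replicate 1 highest in every gate, against 10.0% of all genes.

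The comparison of VCAM1-negative with VCAM1-high geriatric cells asks what differs with the gate. The small heat shock genes Hspb6 and Hspb7 and the Hsp70 gene Hspa2 were higher in each VCAM1-negative library than in each VCAM1-high library. These are 3 of 62 tested members, and 3.28% of all genes had that order. The reverse order was seen in 4 members and in 8.08% of all genes. In the limma fit over all 11 libraries, 0 of 62 members had an adjusted p under 0.05, and so did 0 of 11568 genes (0%). At an unadjusted p under 0.05 there were 5 members and 755 genes (6.53%). No other tool was run. Libraries of the same number deviated together in these gates, and with the replicate number as a block Hspb6 and Hspb7 passed, 2 of 62 members against 0.562% of all genes.

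Hspb6, a small heat shock protein of striated and smooth muscle, had 28.3, 225 and 88.0 RPKM in VCAM1-negative replicates 1, 2 and 3. It had 7.63, 5.82 and 5.59 RPKM in VCAM1-high, 7.35 and 9.26 for VCAM1-low and 6.91, 7.38 and 11.1 in the middle-aged libraries. All VCAM1-negative libraries were above the other 8. The log2 difference from VCAM1-high was 3.52 ± 0.55 (adjusted p = 0.054, or 0.029 with the block). Without VCAM1-negative replicate 1 it passed (adjusted p = 0.0002), and over all alternatives the adjusted p ran up to 0.32.

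Hspb7, a small heat shock protein of heart and skeletal muscle, had 12.2, 204 and 23.5 RPKM in VCAM1-negative, 0.98, 1.98 and 0.97 for VCAM1-high, 0.95 and 3.34 for VCAM1-low and 0.82, 1.004 and 2.03 in the middle-aged libraries. Here too the VCAM1-negative libraries were above the other 8, with a spread of 107.8 RPKM (SD) around a mean of 80.0. The log2 difference from VCAM1-high was 4.16 ± 0.78 (adjusted p = 0.099, or 0.035 with the block). Over all alternatives the adjusted p ran from 0.005, without VCAM1-negative replicate 1, to 0.39. The scale of log2(RPKM + 1) understates changes of a gene this low.

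The Hspb6 start region holds 1 short motif, 120 bases before the annotated start on GRCm38.p6, given here because the gene leads the comparison. Of all genes with a window 9.04% hold the short motif, and the windows of Hspb7 and Hspa2 had no match.
Hspb6 (chr7:30553151-30553218, plus strand): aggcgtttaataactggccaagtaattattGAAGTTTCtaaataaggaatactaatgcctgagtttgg

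Myofibre transcripts moved with both genes. Their summed level was 764, 7794 and 6159 RPKM in the VCAM1-negative libraries, with 14 to 15 markers at 1 RPKM or more, and 73.3, 132 and 214 for VCAM1-high, with 12 to 13 markers. The marker list contains Acta1, the skeletal actin, at 280, 3040.2 and 2254 RPKM in VCAM1-negative and 22.3 to 58.3 for VCAM1-high. No marker of the list was at 0 in any library. The VCAM1-negative library lowest in myofibre markers, replicate 1, was also lowest in Hspb6 and Hspb7, while replicates 2 and 3 had 204 and 23.5 RPKM of Hspb7 at marker sums of 7794 and 6159. The part of myofibre RNA in these differences was not tested.

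**Figure D4:**
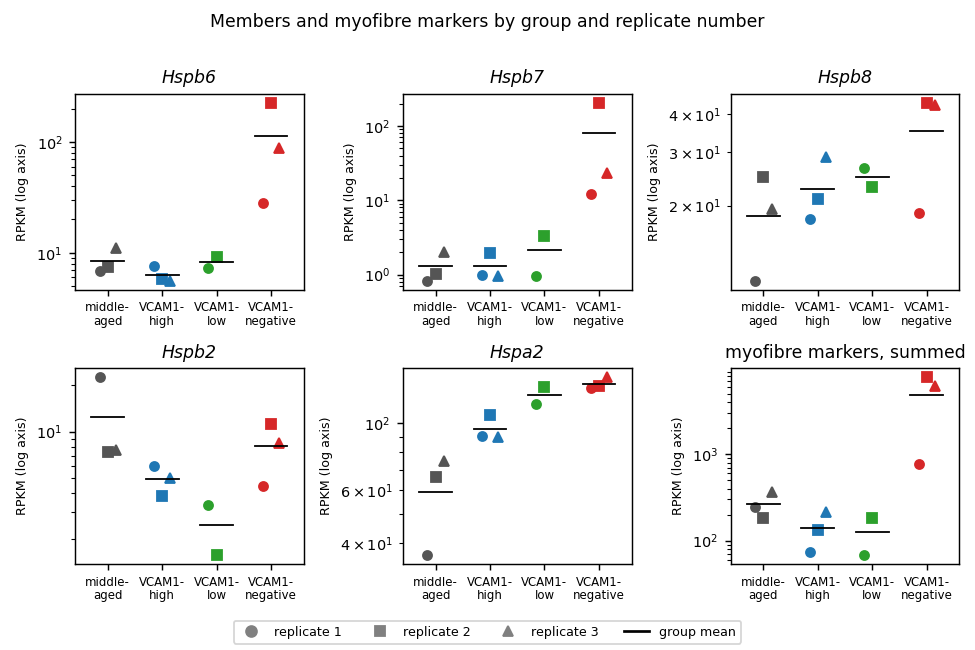
RPKM (log axis, scaled per panel) of 5 members and the summed myofibre markers by group; circles, squares and triangles are replicates 1, 2 and 3, and the line is the group mean. In Hspb6, Hspb7 and the marker sum all 3 VCAM1-negative libraries lie above the other 8, and in Hspa2 the middle-aged libraries (36.4 to 74.9 RPKM) lie below all geriatric ones.

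The other tested small heat shock genes of muscle overlapped between the gates. Hspb3, too low to be tested, did not, with 0.41, 1.71 and 0.61 RPKM in VCAM1-negative against 0.26, 0.21 and 0.14 for VCAM1-high. Hspb8, which works with Bag3, had 18.9, 43.5 and 42.7 RPKM in VCAM1-negative and 18.1, 21.0 and 28.8 for VCAM1-high (0.54 ± 0.35 log2, adjusted p = 0.85). Hspb2 had 4.44, 11.2 and 8.49 RPKM against 5.95, 3.82 and 4.99 (0.55 ± 0.42, adjusted p = 0.86), and 30.2% of its exon bases are shared with Cryab on the other strand. Hspb1 had a difference of 0.52 ± 0.86 log2 (adjusted p = 0.93).

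Hspa2, an Hsp70 gene best known from male germ cells, had 131, 133 and 142 RPKM in VCAM1-negative, 116 and 132 for VCAM1-low and 90.9, 107 and 90.3 for VCAM1-high. VCAM1-low lay between the other gates and touched the VCAM1-negative range. The log2 difference between VCAM1-negative and VCAM1-high was 0.49 ± 0.24 (adjusted p = 0.77), and 0.046 was the adjusted p with the block in the geriatric libraries alone, where 3 of 61 members and 4.42% of all genes passed (0.980% higher and 3.43% lower). Within the VCAM1-negative gate Hspa2 spanned 131 to 142 RPKM and the myofibre sum 764 to 7794. The part of myofibre RNA in the Hspa2 difference was not tested.

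Among the tested members, groups did not overlap for 3 in the higher direction, Hspb6, Hspb7 and Hspa2 (3.28% of all genes). For 4 the groups did not overlap in the lower direction (8.08% of all genes): Dnajc24, Dnajc3, Dnajb14 and Hspa14. Dnajc24, which takes part in making diphthamide on a translation factor, had 5.93, 6.51 and 4.25 RPKM in VCAM1-negative and 12.3, 7.84 and 8.47 for VCAM1-high (-0.67 ± 0.22 log2, adjusted p = 0.48). Dnajc3, a J-domain protein of the endoplasmic reticulum that restrains PERK signalling, had 53.2, 52.8 and 54.3 RPKM against 64.2, 60.7 and 70.4 (-0.28 ± 0.15, adjusted p = 0.82). Dnajb14, in the membrane of that compartment, gave -0.36 ± 0.16 (adjusted p = 0.76), and Dnajc10, a disulfide reductase there, -0.46 ± 0.19 (adjusted p = 0.69).

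The inducible genes were not called between the gates, and for Hspa1a, Hspa1b, Hsph1, Hspe1 and Dnajb1 leaving out single libraries turned the sign. Hspa1a was 2.84-fold higher in VCAM1-negative than in VCAM1-high among the libraries numbered 1, and 0.82-fold and 0.70-fold among those numbered 2 and 3. The fitted difference was 0.24 ± 1.19 log2 (adjusted p = 0.98), and -0.40 without the geriatric libraries numbered 1. Hspa1b (0.21 ± 1.27), Hsph1 (0.14 ± 0.84), Hspe1 (-0.10 ± 0.87), Dnajb1 (0.27 ± 0.51) and Hsp90aa1 (0.28 ± 0.31) had adjusted p-values of 0.90 to 0.99. Hsp90aa1 kept its sign, at 0.019 to 0.53 with single libraries left out. Hspa8 (0.10 ± 0.22), Hsp90ab1 (0.12 ± 0.23), Hspa9 (0.02 ± 0.19), Hspd1 (-0.11 ± 0.30), Dnaja1 (0.29 ± 0.33), Dnajb4 (-0.27 ± 0.25), Bag3 (-0.03 ± 0.24) and Hsf1 (0.13 ± 0.15) also missed the threshold. The median over the 62 members was 0.0016 log2 and over all genes -0.07.

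VCAM1-high geriatric cells were set against middle-aged YFP+ cells in the same fit. No member passed, 0 of 62, while 70 of all genes did (0.605%); 8 members had an unadjusted p under 0.05, as did 1724 genes (14.9%). The lowest adjusted p among members was that of Hspa2, 0.18. With the replicate number as a block Dnajc25 fell by 0.67 ± 0.17 log2 (adjusted p = 0.048), 1 of 62 members against 6.98% of all genes (4.17% higher and 2.81% lower). It had 27.3, 21.8 and 19.2 RPKM in VCAM1-high and 37.0, 45.2 and 28.7 in the middle-aged libraries. The labels do not say that the number pairs libraries of these groups. For Dnajc25, replicate 1 minus 2 was 0.31 log2 in VCAM1-high and -0.28 in the middle-aged libraries. Replicate 1 minus 3 was 0.49 and 0.36.

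Hspa2 was above the middle-aged libraries (36.4, 66.0 and 74.9 RPKM) in each VCAM1-high library, by 0.75 ± 0.24 log2. Hspa4l, a relative of Hsph1, had 12.7, 12.5 and 10.54 RPKM against 7.57, 8.93 and 4.95 (0.69 ± 0.25, adjusted p = 0.23). Dnajc30, a J-domain protein of the inner mitochondrial membrane, had 16.4, 18.1 and 16.6 RPKM against 13.4, 8.19 and 12.3 (0.58 ± 0.20, adjusted p = 0.21). These 3 belong to the 6 members that did not overlap in the higher direction (13.8% of all genes), with Dnajb5, Dnajb12 and Dnajc27.

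In the lower direction 6 members did not overlap (6.36% of all genes): Dnajc25, Dnajc3, Dnajc13, Hspb2, Hspa12a and Dnajb3. Hspa12a, a distant Hsp70 relative, gave -0.91 ± 0.36 log2 (adjusted p = 0.26), Hspb2 -1.03 ± 0.42 (0.28) and Dnajb3 -0.70 ± 0.30 (0.32). Dnajb3 reached 1 RPKM only in middle-aged replicates 1 and 3 (1.89 and 1.34) and was at or under 0.82 elsewhere. It thus entered the test only through the group where it was high, so its lower level in VCAM1-high is no separate evidence. The inducible genes had wide errors, with 1.07 ± 1.19 for Hspa1a, 1.19 ± 1.27 for Hspa1b and 1.08 ± 0.86 for Hspb1. Replicate 3 of VCAM1-high lay within the middle-aged range for Hspa1a and Hspa1b and below it for Hspb1. Hsph1 (0.36 ± 0.84) and Hspe1 (0.34 ± 0.87) changed sign without VCAM1-high replicate 1 (-0.23 and -0.33). Hspa8 (-0.35 ± 0.22), Bag3 (-0.29 ± 0.24), Dnajb1 (-0.36 ± 0.51), Dnajb4 (-0.41 ± 0.25), Hspb6 (-0.35 ± 0.55), Hsf1 (-0.06 ± 0.15), Hspa9 (0.08 ± 0.19), Hspd1 (0.08 ± 0.30), Hsp90aa1 (0.24 ± 0.31), Hsp90ab1 (-0.22 ± 0.23), Hspb7 (0.02 ± 0.78), Hspb8 (0.32 ± 0.35) and Dnaja1 (0.63 ± 0.33) did not pass either.

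VCAM1-negative geriatric cells differed from middle-aged YFP+ cells in 8 of 62 members (12.9%), close to the 14.4% of all genes that passed. Hspb6, Hspb7, Hspa2 and Dnajc30 rose (7.06% of all genes rose) and Dnajc24, Hspb11, Dnajc3 and Hspa12a fell (7.38% of all genes fell). At an unadjusted p under 0.05 there were 19 members, and 33.8% of all genes. This comparison shares the middle-aged libraries with the previous comparison and the VCAM1-negative libraries with the first, so the same genes recurring is no separate evidence. The groups did not overlap for 7 members in the higher direction (18.7% of all genes) and 11 in the lower (20.3%), while 39.0% of all genes did not overlap in either direction.

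The marker sums of 3 cell types did not overlap in this comparison. Muscle stem cell markers summed to 1414 to 2149 RPKM in VCAM1-negative and 2839 to 3722 in the middle-aged libraries, with all 10 at 1 RPKM or more. Myofibre markers summed to 764 to 7794 RPKM against 184 to 370. Erythroid markers, 3 of 5 in the table, summed to 194 to 650 RPKM against 5.77 to 165, with none at 0. The part of these in the 8 calls was not tested.

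Hspb6 rose by 3.17 ± 0.55 log2 (adjusted p = 0.009) and Hspb7 by 4.18 ± 0.78 (adjusted p = 0.011), from the values given above and with myofibre sums of 764 to 7794 RPKM against 184 to 370. Hspa2 rose by 1.24 ± 0.24 (adjusted p = 0.012), from a mean of 59.1 ± 20.2 RPKM to 135 ± 6.03 (SD, n = 3 each). Dnajc30 rose by 0.87 ± 0.20 (adjusted p = 0.022), with 17.4, 21.6 and 24.6 RPKM in VCAM1-negative, and 26.2% of its exon bases are shared with Bud23 on the other strand. Hspb6, Hspb7 and Hspa2 were also the 3 of 62 members (4.84%; 3.32% of all genes) that passed the F test among all 4 groups.

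Of the genes that fell, Dnajc24 changed by -1.12 ± 0.22 log2 (adjusted p = 0.013), from 15.7, 10.7 and 13.1 RPKM in the middle-aged libraries to 5.93, 6.51 and 4.25. Hspb11 changed by -1.29 ± 0.33 (adjusted p = 0.030), from 6.996, 7.29 and 5.47 RPKM to 3.1002, 1.66 and 1.70. It carries a heat shock symbol but is known as a part of the transport machinery of cilia. Dnajc3 changed by -0.57 ± 0.15 (adjusted p = 0.032), from 71.8, 88.0 and 79.5 RPKM to 53.2, 52.8 and 54.3, with VCAM1-low between at 55.8 and 60.7. Hspa12a changed by -1.18 ± 0.36 (adjusted p = 0.049), from 4.05, 4.89 and 5.33 RPKM to 2.37, 0.76 and 1.72.

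The weaker calls depended on single libraries. Without the libraries numbered 3 the count was 5 (7.40% of all genes), namely Hspb6, Hspb7, Hspa2, Hspb1 and Dnaja1, while Dnajc24, Dnajc30, Hspb11, Dnajc3 and Hspa12a were not called (adjusted p = 0.069 to 0.13). Without middle-aged replicate 1, 2 or 3 the count was 5, 4 and 5 (4.45%, 8.6% and 6.87% of all genes), and without VCAM1-negative replicate 2 or 3 it was 4 (2.95% and 7.18%). The inducible genes were not called: Hspa1a 1.30 ± 1.19 log2 and Hspa1b 1.40 ± 1.27 (adjusted p = 0.46 to 0.47), which became -0.09 and -0.08 without the geriatric libraries numbered 1. Hspb1 gave 1.60 ± 0.86 (adjusted p = 0.21) and passed without the libraries numbered 3 (adjusted p = 0.009, with 0.52 the highest over all alternatives). Nearest to the threshold without passing were Dnajc25 (-0.84 ± 0.26 log2, adjusted p = 0.0502), Dnajb14 (-0.53 ± 0.16, 0.053), Hspa13 (-0.52 ± 0.17, 0.058) and Hspa4l (0.75 ± 0.25, 0.066). Of the core members, Dnaja1 (0.92 ± 0.33, adjusted p = 0.079), Dnajb4 (-0.69 ± 0.25, adjusted p = 0.084) and Hspb8 (0.86 ± 0.35, adjusted p = 0.11) followed.

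The remaining core members stood further from it. These were Hsph1 (0.49 ± 0.84), Hspe1 (0.24 ± 0.87), Hsp90aa1 (0.52 ± 0.31), Hsp90ab1 (-0.10 ± 0.23), Hspa8 (-0.24 ± 0.22), Bag3 (-0.32 ± 0.24), Dnajb1 (-0.10 ± 0.51), Hspa9 (0.10 ± 0.19), Hspd1 (-0.03 ± 0.30) and Hsf1 (0.07 ± 0.15). The median over the 62 members was -0.02 log2, as over all genes.

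**Figure D5:**
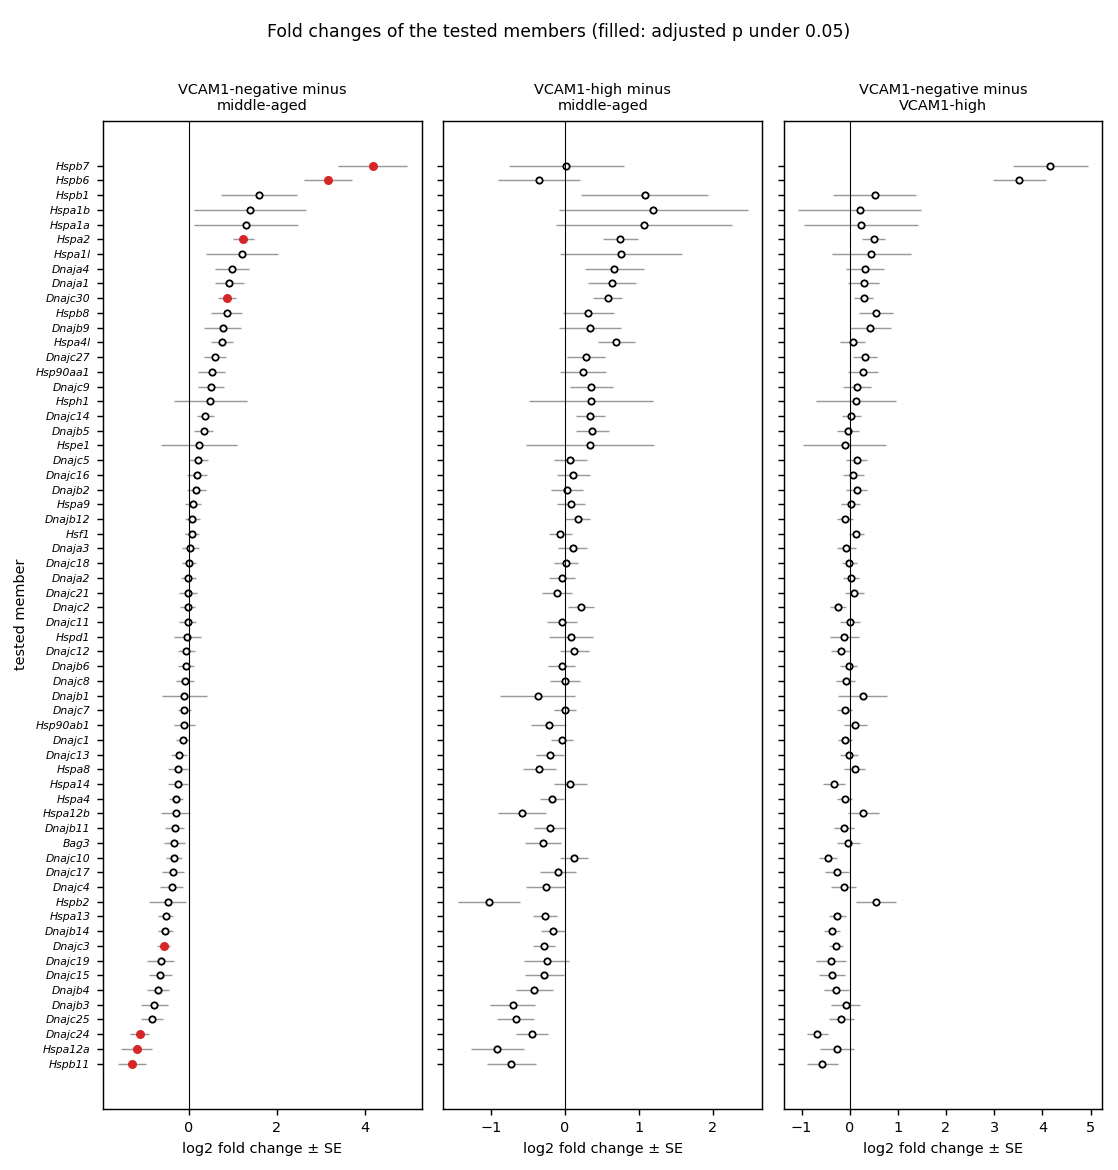
Log2 fold change ± standard error of the 62 tested members on the log2(RPKM + 1) scale in VCAM1-negative against middle-aged (left), VCAM1-high against middle-aged (middle) and VCAM1-negative against VCAM1-high (right), in the order of the left panel; each panel has its own axis range, and red points have an adjusted p under 0.05. The 8 red points are all in the left panel, and Hspa1a and Hspa1b have standard errors above 1 log2 in each panel.

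Genes that work with these chaperones but lie outside the symbol rule were read from lists of their partners. Of 67 tested, 0 passed in VCAM1-negative against VCAM1-high (0% of all genes) and 0 in VCAM1-high against middle-aged (0.605% of all genes). In VCAM1-negative against middle-aged 5 passed (7.46%), against 14.4% of all genes. There Hsbp1, a binding protein of Hsf1, fell (1 of 5 tested HSF-related genes; -1.03 ± 0.20 log2, adjusted p = 0.013). Bag5, an Hsp70 exchange factor, rose (1 of 11; 0.80 ± 0.23, adjusted p = 0.043). Of 19 Hsp90 co-chaperones the myosin chaperone Unc45b rose (1.55 ± 0.35, adjusted p = 0.021) and the immunophilin Fkbp4 fell (-1.07 ± 0.32, adjusted p = 0.048). Pdia4, a disulfide isomerase of the endoplasmic reticulum, fell (1 of 6; -1.47 ± 0.39, adjusted p = 0.034).

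Unc45b, which is known from striated muscle, had 2.46, 8.09 and 7.49 RPKM in VCAM1-negative and 0.70 to 2.20 in the other 8 libraries. The myofibre sum was also highest in the VCAM1-negative libraries, and its part in the Unc45b rise was not tested. None of 8 cytosolic chaperonin (TRiC/CCT), 6 prefoldin, 7 mitochondrial chaperone and protease or 5 clearance genes passed in any of the 3 comparisons. Replicate 1 was highest in every geriatric gate for 5 of 19 Hsp90 co-chaperones (Stip1, Ahsa1, Chordc1, Tomm34 and Rpap3), 1 of 5 HSF-related genes, 1 of 6 prefoldin genes and 1 of 6 genes of the endoplasmic reticulum, and for 0 of 11 exchange factors, 0 of 8 TRiC/CCT, 0 of 7 mitochondrial and 0 of 5 clearance genes. Of all genes 10.0% had that order. Of the 5 co-chaperones, Chordc1 passed the number term, while Stip1, Ahsa1, Tomm34 and Rpap3 did not (adjusted p = 0.071 to 0.38). Chordc1, an Hsp90 partner, had 38.9, 29.9 and 23.1 RPKM in VCAM1-high. It had 38.8 and 25.6 for VCAM1-low and 37.9, 21.6 and 22.0 for VCAM1-negative. Its replicate 1 exceeded replicate 2 by 0.58 ± 0.12 log2 (adjusted p of the number term 0.013).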

How the data were processed

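RNA was measured in 11 libraries of sorted YFP+ cells, grouped by their titles. Per the labels' protocols, cells were freed from muscle by enzymes, their RNA was taken up in TRI Reagent, and SMART-Seq v4 libraries were read as paired ends. The authors deposited RPKM values for each gene. According to the submitters' processing notes, the build was GRCm39 and the tools included STAR 2.7.5b, Bowtie2 2.1.0, SAMtools 0.1.19 and cutadapt 3.1. The sources used here do not give the counting tool, its use of strand, the annotation or the gene lengths. Depth was estimated from the step that 1 read makes in RPKM values of 0.1 or less; 62.5% to 73.0% of those values fell no more than 0.1 from a whole read (20% would by chance), so no reads were recovered and depths are estimates.

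Values were tested as log2(RPKM + 1) with limma 3.58.1 (R 4.3.3; trend in the variance), in 1 model of 4 group means over 11 libraries, for genes that reached 1 RPKM in 2 libraries. The Benjamini-Hochberg adjustment covered all genes tested, and a gene was called at an adjusted p under 0.05. VCAM1-low, with 2 libraries, entered the F test among groups and the number terms, but no comparison of 2 groups. The script was tested on simulated data. The members, lists and tests were chosen with earlier results of these data known. The number terms in the geriatric libraries and the omission of the geriatric libraries numbered 1 were chosen after seeing the data. Genes are named by rule: 18 core members, those that pass (up to 8 in each direction), the 4 of smallest p in each direction and comparison, the 5 most abundant, and up to 3 passing genes of a pathway list. Genes named as untested, as non-overlapping, as near the threshold or for their order by number were added after their values were seen.

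Same-numbered libraries deviated together from their group means in VCAM1-negative and VCAM1-high (r = 0.41, 0.58 and 0.40) and in VCAM1-high and middle-aged (r = 0.21, 0.33 and 0.55), so the fit with the replicate number as a block is given there; in the latter, VCAM1-high replicate 1 was closer to middle-aged replicate 2 (r = 0.33). Alternatives were the block, a pseudocount of 0.1, no filter, a mean of at least 5 RPKM, an equal RPKM sum, median-ratio scaling, only the 2 groups compared, and leaving out libraries. Promoters are from RefSeq (GRCm38.p6), and exon overlaps and shared transcript windows from GENCODE M21 (GRCm38), matched by symbol because the values were made on GRCm39. Protein sequences were not analysed here.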

Additional observations from a re-analysis of the deposited data

How the results depend on the processing

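With the replicate number as a block, the members called were 2 in VCAM1-negative against VCAM1-high (0.562% of all genes; 3 in the 8 geriatric libraries, 4.42%), 1 in VCAM1-high against middle-aged (6.98%), 19 in VCAM1-negative against middle-aged (31.6% of all genes) and 10 among the 4 groups (17.5%). Between VCAM1-negative and middle-aged the libraries share only a number (correlations of -0.02, 0.03 and 0.08). In VCAM1-negative against VCAM1-high, 1 member was called with a pseudocount of 0.1, a mean of at least 5 RPKM, an equal RPKM sum, median-ratio scaling or without the geriatric libraries numbered 1 (0.112% to 0.567% of all genes), and 0 to 2 when single libraries were left out (0% to 1.11%). VCAM1-high against middle-aged stayed at 0 under every alternative but the block. VCAM1-negative against middle-aged gave 5 without the libraries numbered 3 (7.40%) and 4 to 10 with single libraries left out (2.95% to 16.1%). The test among 4 groups gave 0 without a filter (0.211%), 1 without the libraries numbered 3 (2.25%) and 0 to 3 with single libraries left out (0.339% to 5.55%). The number term over 11 libraries gave 3 without a filter (1.54%), 3 without the libraries numbered 3 (3.31%), 0 without the geriatric libraries numbered 1 (0.201%) and 1 to 17 with single libraries left out (0.329% to 19.5%). In the geriatric libraries it gave 5 without those numbered 1 (5.27%) and 8 to 24 with single libraries left out (4.89% to 39.7%). The cause of these shifts was not tested.

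No called fold change turned its sign under the alternatives run; 63 values of uncalled named genes did, 30 of them in VCAM1-negative against VCAM1-high. In that comparison the log2 ranges with single libraries left out were -1.16 to 1.29 for Hspa1a, -1.27 to 1.32 for Hspa1b, -0.86 to 0.72 for Hsph1, -1.003 to 0.63 for Hspe1, -0.39 to 0.095 for Hspd1, -0.38 to 1.54 for Hspb1, -0.30 to 0.56 for Dnajb1, -0.086 to 0.55 for Dnaja1, -0.11 to 0.25 for Hsp90ab1, -0.027 to 0.27 for Hspa8, -0.053 to 0.14 for Hspa9 and -0.17 to 0.11 for Bag3. Without the geriatric libraries numbered 1 they read -0.40 for Hspa1a, -0.43 for Hspa1b, -0.28 for Hsph1, -0.048 for Dnajb1 and -0.0022 for Hsp90ab1. Bag3 read 0.045 with median-ratio scaling and 0.068 without the libraries numbered 3.

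In VCAM1-negative against middle-aged the ranges were -0.089 to 2.36 for Hspa1a, -0.081 to 2.51 for Hspa1b, -0.51 to 1.06 for Hsph1, -0.66 to 0.97 for Hspe1, -0.31 to 0.16 for Hspd1, -0.66 to 0.20 for Dnajb1 and -0.33 to 0.026 for Hsp90ab1. The values without the geriatric libraries numbered 1 were -0.089, -0.081, -0.51 and -0.66 for Hspa1a, Hspa1b, Hsph1 and Hspe1. Dnajb1 read 0.34 and Hsf1 -0.00021 without the libraries numbered 3, and Hspd1 0.018 with an equal RPKM sum. In VCAM1-high against middle-aged the ranges were -0.33 to 0.98 for Hspe1, -0.23 to 0.87 for Hsph1, -0.12 to 0.24 for Hspd1, -0.0063 to 0.48 for Hsp90aa1, -0.18 to 0.24 for Hspb7 and -0.12 to 0.0040 for Hsf1. Without the geriatric libraries numbered 1 they read -0.33 for Hspe1, -0.23 for Hsph1, -0.12 for Hspd1 and -0.0063 for Hsp90aa1, and Hspb7 read -0.019 with median-ratio scaling.

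Only 2 or 3 libraries stand in a group, and a p that misses the threshold does not show that levels were alike. RPKM values without read counts limit what can be said of members under 1 RPKM.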

Other observations

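Some members followed single libraries rather than groups. Hspa12b, an Hsp70 relative known from endothelial cells, had 3.11 RPKM in middle-aged replicate 3 and 0.16 to 1.20 in the other 10 libraries; that library also had the highest endothelial marker sum (434 RPKM, against 28.2 to 200 elsewhere). The part of endothelial RNA in this was not tested. Hspb2, a small heat shock gene of muscle, was highest in middle-aged replicate 1 (22.5 RPKM, against 1.58 to 11.2 elsewhere), as was its neighbour Cryab, the lens and muscle crystallin (478 RPKM, against 49.3 to 222). Cryab covers 30.2% of the Hspb2 exon bases on the other strand, so reads may be counted for either gene if strand was not used. Dnajc9, a J-domain histone chaperone, had 35.9 RPKM in middle-aged replicate 1, 17.0 and 17.1 in the other middle-aged libraries and 21.5 to 39.5 in the geriatric ones.

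Several members hardly varied. The highest library was 1.27 times the lowest for Dnajc7, a co-chaperone of Hsp70 and Hsp90, and 1.29 times for Dnaja2, Dnajc1 and Hsf1. For Hspb7 the same ratio was 248.3, for Hspb6 40.2, for Hspa1b 37.4 and for Hspa1a 30.7.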
